A study of Mus musculus with 9 samples.

Results

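The 36 genes described here mark blood lineages other than the T cell: 11 B cell genes, 13 myeloid genes, 9 genes of natural killer (NK) cells and cytotoxic granules, and 3 erythroid genes. They were chosen by name as lineage markers, and every chromatin peak that the deposited table assigns to one of these symbols was taken, 97 of the 115727 listed peaks. A peak was listed for 28 of the 36 genes, and no peak was listed for the other 8. Open DNA was mapped by ATAC-seq, where a transposase cuts and tags accessible chromatin. The cells were CD4+ T cells in the naive state, before any contact with antigen, taken untreated from C57BL/6 mice. The 3 groups of 3 libraries were Stat6_KO (Stat6 knockout), Il21e_KO (labelled both Il21e KO and IL21KO, with the removed DNA not given) and WT (wild type). Cells were enriched with a commercial isolation kit for this subset before tagmentation. The labels give no age, and no statement that replicates came from separate mice, so p-values measure only the spread between these libraries.

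B, myeloid, NK and erythroid cells each keep their identity through a few transcription factors: EBF1 and PAX5 in B cells, PU.1 (Spi1) and the C/EBP proteins in myeloid cells, and GATA1 with KLF1 in red cell precursors. Genes of a foreign lineage are usually silent in a T cell, and their promoters are often closed to transposase. CpG-rich promoters are an exception to that rule, since many of them stay open in cells that do not transcribe the gene, and the cytotoxic genes are shared with CD8 T cells and activated T cells.

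Promoter sequences of 28 of the 36 genes were found in RefSeq (GRCm38.p6), 35 promoters in all, each running from 250 bases before the transcription start to 50 after it. No promoter entry was matched for Cd79b, Ms4a1, Blk, Cd14, Csf1r, Spi1, Tyrobp and Klri2. CpG-rich promoters, with an observed over expected CpG ratio above 0.6, made up 5 of the 35 (14.3%), against 35.8% of the 32851 promoters of the table. They were those of Pax5, Cebpa, Cebpb and both promoters of Ebf1. The upstream Ebf1 promoter passed this ratio with only 9 CpG and 36.7% GC, since it holds few C and G. A CpG-rich sequence was found at the most open promoter of the set and also at one with a weak peak. Sequences were matched to genes by symbol, and the peaks, which are on mm9, were not placed on this build. The Cebpb promoter (chr2:167688665-167688964, plus strand) and the Pax5 promoter (chr4:44710645-44710944, minus strand) show this contrast below, with each CG dinucleotide in capitals.
Cebpb: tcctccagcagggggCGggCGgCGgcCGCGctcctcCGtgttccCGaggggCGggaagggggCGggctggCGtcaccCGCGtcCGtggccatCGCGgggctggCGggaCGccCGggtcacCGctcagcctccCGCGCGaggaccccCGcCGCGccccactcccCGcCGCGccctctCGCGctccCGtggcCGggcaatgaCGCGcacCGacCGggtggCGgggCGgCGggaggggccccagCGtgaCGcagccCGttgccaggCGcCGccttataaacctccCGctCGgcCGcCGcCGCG
Pax5: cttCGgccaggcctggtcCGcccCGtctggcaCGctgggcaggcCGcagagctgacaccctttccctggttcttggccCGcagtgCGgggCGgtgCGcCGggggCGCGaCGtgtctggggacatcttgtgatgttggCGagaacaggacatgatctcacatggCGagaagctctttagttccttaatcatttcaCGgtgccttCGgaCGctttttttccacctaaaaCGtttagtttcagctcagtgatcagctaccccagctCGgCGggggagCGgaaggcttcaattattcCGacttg
Cebpb holds 50 CpG in these 300 bases and Pax5 holds 23. The promoter peaks of the T cell libraries measured 33.5 CPM per kb at Cebpb and 6.99 CPM per kb at Pax5. The Cebpb peak is listed at 0 bp from the transcription start and the Pax5 peak at -245 bp, on its upstream side. How much of the printed Pax5 sequence this peak covers was not determined, since the peak and the sequence are on different builds. CPM is the number of reads in a peak scaled so that all peaks of a library sum to 1000000, and a level is the mean CPM over the 9 libraries per kb of peak. Across the 15 genes with both a promoter peak and a sequence, the CpG ratio and the level had a Pearson r of 0.433 and a Spearman rho of 0.436. These are given as a description of genes that share the same 9 libraries. For genes with several promoters the highest CpG ratio was used, so the upstream promoter stood for Ebf1. Some of these levels, as at Pax5, come from a peak listed off the transcription start, which may not cover the sequence.

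The NK promoters differed in composition from those of Cebpb and Pax5. None of the 9 promoters of the 7 NK genes with a sequence was CpG-rich, and 8 of the 9 held the letters TGTGGT, or ACCACA on the other strand, the core recognised by RUNX factors. Promoters of Ncr1 overlap each other, as do those of Klre1, so the 9 are not independent, but all 7 genes had a match in at least 1 promoter, against 18.9% of all genes and 16.8% of all promoters. The same letters were in 2 of the 11 B promoters, 2 of the 12 myeloid promoters and 2 of the 3 erythroid promoters. The promoters of Prf1 (chr10:61297586-61297885, plus strand), Gzma (chr13:113100932-113101231, minus strand), Nkg7 (chr7:43436888-43437187, plus strand) and Ncr1 (chr7:4337465-4337764, plus strand) are shown because the first 3 carry the stronger promoter peaks of the NK list and Ncr1 a weak one, with the RUNX letters in capitals.
Prf1: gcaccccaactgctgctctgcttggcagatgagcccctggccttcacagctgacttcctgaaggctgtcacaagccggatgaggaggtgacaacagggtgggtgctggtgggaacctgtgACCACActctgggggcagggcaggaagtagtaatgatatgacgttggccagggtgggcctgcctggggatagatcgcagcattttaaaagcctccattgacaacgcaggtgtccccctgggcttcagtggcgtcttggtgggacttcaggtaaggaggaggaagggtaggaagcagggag
Gzma: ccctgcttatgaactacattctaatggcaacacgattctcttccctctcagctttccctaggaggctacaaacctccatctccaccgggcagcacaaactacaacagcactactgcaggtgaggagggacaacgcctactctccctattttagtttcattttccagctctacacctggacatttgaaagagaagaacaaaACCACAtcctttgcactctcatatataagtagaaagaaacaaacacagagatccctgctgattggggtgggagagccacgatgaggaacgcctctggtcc
Nkg7: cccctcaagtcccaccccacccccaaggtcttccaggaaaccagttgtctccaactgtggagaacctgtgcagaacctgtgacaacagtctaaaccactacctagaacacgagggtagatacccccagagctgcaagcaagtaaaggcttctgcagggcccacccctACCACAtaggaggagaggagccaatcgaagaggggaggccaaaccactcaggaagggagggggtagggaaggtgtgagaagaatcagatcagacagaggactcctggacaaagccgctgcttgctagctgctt
Ncr1: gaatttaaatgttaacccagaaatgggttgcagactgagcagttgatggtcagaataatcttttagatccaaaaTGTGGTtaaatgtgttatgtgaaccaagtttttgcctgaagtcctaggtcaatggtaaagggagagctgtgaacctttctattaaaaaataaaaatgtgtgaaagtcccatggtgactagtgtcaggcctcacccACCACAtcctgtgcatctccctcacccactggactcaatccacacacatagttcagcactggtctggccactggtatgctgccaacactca
The match begins at -130 in Prf1, -50 in Gzma and -83 in Nkg7, counted from the transcription start, and Ncr1 has matches at -176 and -41. The letters therefore stood both in promoters with a stronger peak and in that of Ncr1. The Ncr1 peak, at a mean of 1.86 CPM, lay within the counting floor given below. They are a description of the sequence and not evidence of binding.

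The other 6 of the 7 motifs searched on both strands follow with their letters. The PU.1 core GAGGAAG was in 5 of the 12 myeloid promoters (41.7%), 3 of the 9 NK promoters (33.3%), 0 of the 11 B promoters and 13.6% of all promoters. The 2 Fcgr3 promoters overlap and both hold these letters. By gene the core was in 4 of 10 myeloid genes and 3 of 7 NK genes, against 15.4% of all genes. The EBF1 letters CCCNNGGG were in 2 of the 11 B promoters (18.2%) and in 4 of the 12 myeloid promoters (33.3%), against 13.7% of all promoters. Both Fcgr3 promoters are among the 4, and by gene the letters were in 2 of 8 B genes and 3 of 10 myeloid genes, against 15.4%. The palindromic C/EBP letters TTGCGCAA were in 0 of the 35 promoters, where 0.183% of all promoters hold them. The GATA letters AGATAA were in 1 of the 3 erythroid promoters, that of Epor, and in 2 of the 12 myeloid promoters, against 11.2% of all promoters. The short KLF letters CACCC were in 3 of the 3 erythroid promoters, but also in 57.5% of all promoters. They were in 10 of the 11 B promoters, 8 of the 9 NK promoters and 5 of the 12 myeloid promoters. A TATA box (TATAAA) was in 7 of the 35 promoters (20.0%) and 13.6% of all promoters. Motifs were counted separately, and matches of different motifs may share bases.

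Between 1049460 and 1802405 reads per library fell in peaks, so 1 read was worth between 0.555 and 0.953 CPM, and a peak without a read may hold up to 3 reads, between 1.66 and 2.86 CPM. These floors cover counting error only. At Stat6, the peak in coding exon 12 had 2.84, 1.77 and 1.84 CPM in Stat6_KO libraries, 4.76, 9.45 and 7.21 CPM in Il21e_KO libraries and 6.73, 7.01 and 12.2 CPM in WT libraries. The exon 16 peak ran the other way, with 23.3, 19.4 and 15.3 CPM in Stat6_KO libraries, 1.91, 6.93 and 7.77 CPM in Il21e_KO libraries, and 5.51, 9.34 and 10.96 CPM in WT libraries. At the Stat6 promoter the groups overlapped, at 63.0 to 68.5 CPM in Stat6_KO, 62.7 to 71.5 CPM in Il21e_KO and 56.8 to 83.8 CPM in WT libraries. The 6 peaks listed for Il21 held at most 3.15 CPM in any library, so they could not check the Il21e_KO label. The first Il21e_KO library stood apart: it had the fewest reads, 23.5% of all listed peaks were without a read (3.37% to 11.2% in the other 8), and 42.7% of its reads lay in promoter peaks (31.6% to 36.4% in the other 8). Of 24 T cell reference genes, 19 (79.2%) had a promoter above the median promoter level, against 55.5% of all genes with a promoter peak. Their levels were 22.7 CPM per kb at Cd3e, 21.7 at Cd3g, 16.9 at Cd4, 23.3 at Cd5, 25.4 at Lck and 30.7 at Tcf7. The Cd4 promoter was below the median, above only 29.1% of promoter peaks.

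A listed peak was missing at 8 lineage genes, 6 of them from the myeloid list. They were Lyz2 (lysozyme), Csf3r (the receptor for granulocyte colony-stimulating factor), Clec7a (a receptor for fungal glucan), Mpeg1 (a pore-forming protein of macrophages), S100a8 and S100a9 (the subunits of calprotectin), and the NK receptor genes Klrk1 and Klri2. For comparison, each of the 24 T cell reference genes, which were chosen by name, had a peak. Over all genes, a peak was listed for 16126 symbols, while the RefSeq promoters, a different annotation, cover 27025 genes. A missing peak is therefore not particular to lineage genes. A gene without a peak is one that the authors' table does not list, and the level there was not measured.

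Of the 28 genes with a peak, 21 had one that the table annotates to the transcription start, called a promoter peak here. Such a peak need not cover the start. Those of Fcgr3, Ebf1, Tyrobp, Fcer2a and Pax5 are listed at -636, -593, -675, -570 and -245 bp from the start, on its upstream side. For 4 of these 21 (19.0%) the strongest promoter peak was above 21.6 CPM per kb, the median of all 14608 promoter peaks. They were Cebpb, Cd14, Prf1 and Fcgr3, that is 3 of 6 myeloid genes and 1 of 5 NK genes, whereas 0 of 10 B genes with a promoter peak were above it. The share was 55.5% for the strongest promoter peak of all 12801 genes with such a peak. Of the 97 lineage peaks, 44 (45.4%) had 3 reads or fewer per library on average, against 36.9% of all peaks. The share was 21.8% for the 362 peaks of the T cell reference genes. It was 44.4% for B, 48.1% for myeloid, 53.8% for NK and 0% for erythroid peaks. The median level of the 97 peaks was 7.44 CPM per kb, against 16.0 for peaks of T cell reference genes and 8.73 for all peaks. By lineage the median was 6.84 for B, 9.25 for myeloid, 7.57 for NK and 19.2 for erythroid peaks.

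**Figure D1:**
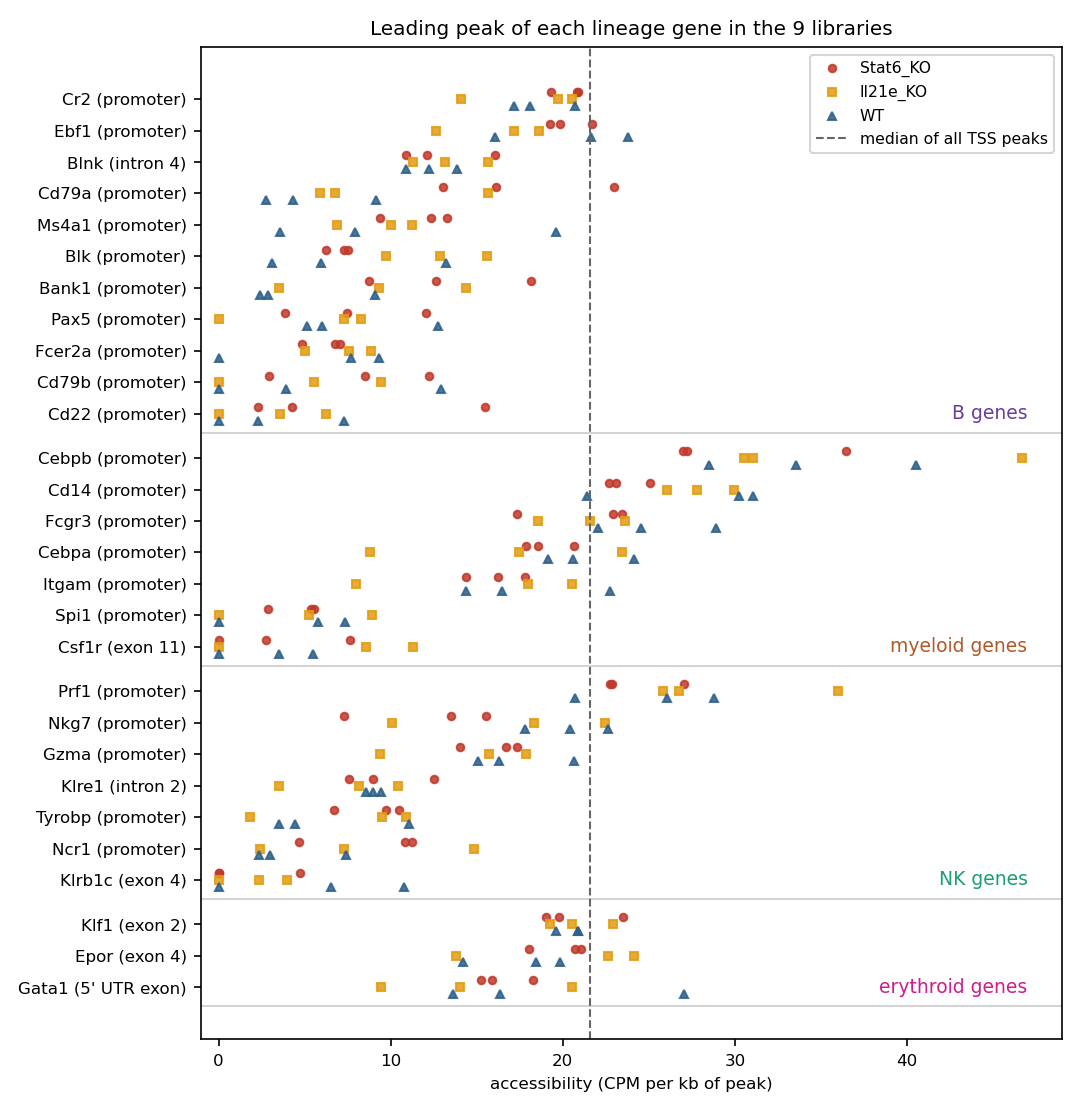
Level of the strongest promoter peak of each of the 28 lineage genes with a peak, or of its strongest other peak where it has no promoter peak, in CPM per kb of peak. Each symbol is 1 library (3 Stat6_KO, 3 Il21e_KO, 3 WT); the dashed line is the median of all 14608 promoter peaks at 21.6 CPM per kb, and Cebpb, Cd14 and Prf1 lie to its right in most libraries.

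Myeloid genes held the 2 most open promoters. The most open was that of Cebpb, which encodes a C/EBP factor induced in macrophages and granulocytes, at chr2:167513837-167515694 (mm9, as in the deposited table). It had 50.6, 67.7 and 50.2 CPM in Stat6_KO libraries, 86.7, 56.7 and 57.7 CPM in Il21e_KO libraries, and 75.3, 62.3 and 52.9 CPM in WT libraries, with a mean of 62.2 ± 12.3 CPM (SD, n = 9). The highest value was in the first Il21e_KO library, and the 3 groups overlapped. At 33.5 CPM per kb it was above 99.0% of all promoter peaks. The promoter of Cd14, the co-receptor for bacterial lipopolysaccharide on monocytes, had 35.8, 33.0 and 32.4 CPM in Stat6_KO libraries, 37.2, 39.7 and 42.7 CPM in Il21e_KO libraries, and 30.6, 44.4 and 43.2 CPM in WT libraries. All 3 Stat6_KO values were below the Il21e_KO values, while the WT libraries spread over both. The peak, at 26.4 CPM per kb and above 80.3% of promoter peaks, ends 8269 bp from the closest start of another listed gene, Tmco6.

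The promoter peak of Fcgr3, a low-affinity receptor for the Fc part of IgG, lay at chr1:172990171-172991019, listed at -636 bp from the start. The peak had a mean of 19.1 ± 2.86 CPM (SD, n = 9). It had 19.9, 19.4 and 14.7 CPM in Stat6_KO libraries, 20.0, 15.8 and 18.3 CPM in Il21e_KO libraries, and 20.8, 18.7 and 24.5 CPM in WT libraries. The groups overlapped, and at 22.5 CPM per kb the peak was just above the median promoter peak. Cebpa, which encodes the C/EBP factor that starts granulocyte development, lay below that median when set per kb, above 36.1% of promoter peaks. Its promoter peak at chr7:35903351-35904866 had 31.3, 27.1 and 28.1 CPM in Stat6_KO libraries, 13.3, 26.5 and 35.5 CPM in Il21e_KO libraries, and 31.2, 36.6 and 29.0 CPM in WT libraries. The 13.3 CPM of the first Il21e_KO library was the lowest of the 9, and the level was 19.0 CPM per kb.

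The promoter of Itgam, which encodes the integrin CD11b, was less open than a peak in its coding exon 7. The promoter peak averaged 9.82 ± 2.49 CPM and the exon 7 peak, at chr7:135223457-135224594, averaged 25.9 ± 4.26 CPM (SD, n = 9). The exon 7 peak had 25.0, 22.4 and 25.1 CPM in Stat6_KO libraries, 25.7, 27.7 and 18.9 CPM in Il21e_KO libraries, and 24.5, 31.1 and 32.9 CPM in WT libraries. The groups overlapped, with the 2 highest values in WT. At Spi1, the gene of PU.1, the promoter peak was at 0.967 CPM on average, below the floor, while a peak in intron 2 had 12.5 ± 1.56 CPM (SD, n = 9). Csf1r, the receptor for macrophage colony-stimulating factor, had 7 peaks outside its promoter, with means between 0.665 and 1.09 CPM and at least 1 library without a read at each. Below the floor, levels cannot be told from no accessibility at this depth.

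Among the NK and cytotoxic genes, Prf1, which encodes perforin, had the most open promoter, at chr10:60759607-60760851. It had 28.4, 28.3 and 33.6 CPM in Stat6_KO libraries, 44.8, 32.1 and 33.3 CPM in Il21e_KO libraries, and 32.4, 35.8 and 25.8 CPM in WT libraries. The highest value was again in the first Il21e_KO library, and the level of 26.3 CPM per kb was above 80.0% of promoter peaks. The promoter of Gzma, the protease granzyme A, had 11.4, 13.5 and 14.1 CPM in Stat6_KO libraries, 7.62, 14.5 and 12.8 CPM in Il21e_KO libraries, and 12.2, 13.2 and 16.8 CPM in WT libraries. The groups overlapped, and the level was 15.9 CPM per kb.

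Peaks of the other NK genes were weak, apart from the Nkg7 promoter, which is described with the genotypes. The promoter of Ncr1, an activating receptor of NK cells, averaged 1.86 ± 1.17 CPM, and that of Tyrobp, the adaptor protein of several such receptors, averaged 2.65 ± 1.24 CPM (SD, n = 9). Klre1 had no promoter peak, and its peak in intron 2 averaged 4.73 ± 1.32 CPM. Klrb1c, the gene of the NK1.1 antigen, had 2 peaks outside its promoter at means of 0.731 and 0.753 CPM. The promoter levels were 7.10 CPM per kb at Ncr1 and 7.57 CPM per kb at Tyrobp. Both means lay within the floor of 1.66 to 2.86 CPM, and the Klrb1c means lay below it.

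The B cell genes had many peaks but none with a promoter above the median. The 11 genes held 54 peaks, and the most open promoters were those of Cr2, the complement receptor CD21, and Ebf1, at 19.0 CPM per kb each. Cr2 had 13.1, 14.1 and 14.1 CPM in Stat6_KO libraries, 9.53, 13.9 and 13.3 CPM in Il21e_KO libraries, and 12.2, 14.01 and 11.6 CPM in WT libraries. The Ebf1 promoter had 13.1, 14.7 and 13.5 CPM in Stat6_KO libraries, 8.58, 12.6 and 11.7 CPM in Il21e_KO libraries, and 14.7, 10.9 and 16.1 CPM in WT libraries. For both genes the first Il21e_KO library was the lowest, and the Ebf1 values of Stat6_KO were all above those of Il21e_KO. The antigen receptor chains Cd79a and Cd79b had promoter peaks at 3.03 ± 1.88 and 1.23 ± 0.976 CPM. Ms4a1, which encodes CD20, had 7.23 ± 3.13 CPM, and Blk, a B cell kinase, had 3.55 ± 1.60 CPM. The promoter of Pax5, the factor that holds B cell identity, had 2.12 ± 1.20 CPM. Bank1, a scaffold protein of B cell signalling, had 2.43 ± 1.47 CPM. The promoter peak of Cd22, an inhibitory receptor, that was strongest per kb had 1.23 ± 1.27 CPM, and that of Fcer2a, the low-affinity IgE receptor, had 1.59 ± 0.706 CPM (SD, n = 9 for each of these). The means of Cd79b, Cd22 and Fcer2a lay below the floor of 1.66 to 2.86 CPM, and those of Pax5 and Bank1 lay within it. Blnk, an adaptor of B cell receptor signalling, had no promoter peak.

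Some B cell genes carried a stronger peak far inside the gene than at the start. In Bank1 a peak in coding exon 8 (chr3:135763160-135764607), 224424 bp from the transcription start, had 34.7, 40.0 and 35.5 CPM in Stat6_KO libraries, 22.9, 37.8 and 38.8 CPM in Il21e_KO libraries, and 41.0, 32.7 and 32.2 CPM in WT libraries. At 24.2 CPM per kb it was more open than 89.5% of all listed peaks. In Ebf1 a peak in intron 8 (chr11:44706329-44707058), 274727 bp from the start, had 20.5, 17.7 and 17.7 CPM in Stat6_KO libraries, 14.3, 20.8 and 20.5 CPM in Il21e_KO libraries, and 16.5, 22.6 and 17.4 CPM in WT libraries, and was above 92.2% of listed peaks. The groups overlapped at both peaks. Blnk had a peak in intron 4 at 10.9 ± 1.65 CPM, Cd22 one in coding exon 5 at 7.88 ± 2.31 CPM, and Pax5 one in intron 5 at 6.44 ± 2.55 CPM (SD, n = 9). These peaks had reads in all 9 libraries, and what they regulate was not measured.

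**Figure D2:**
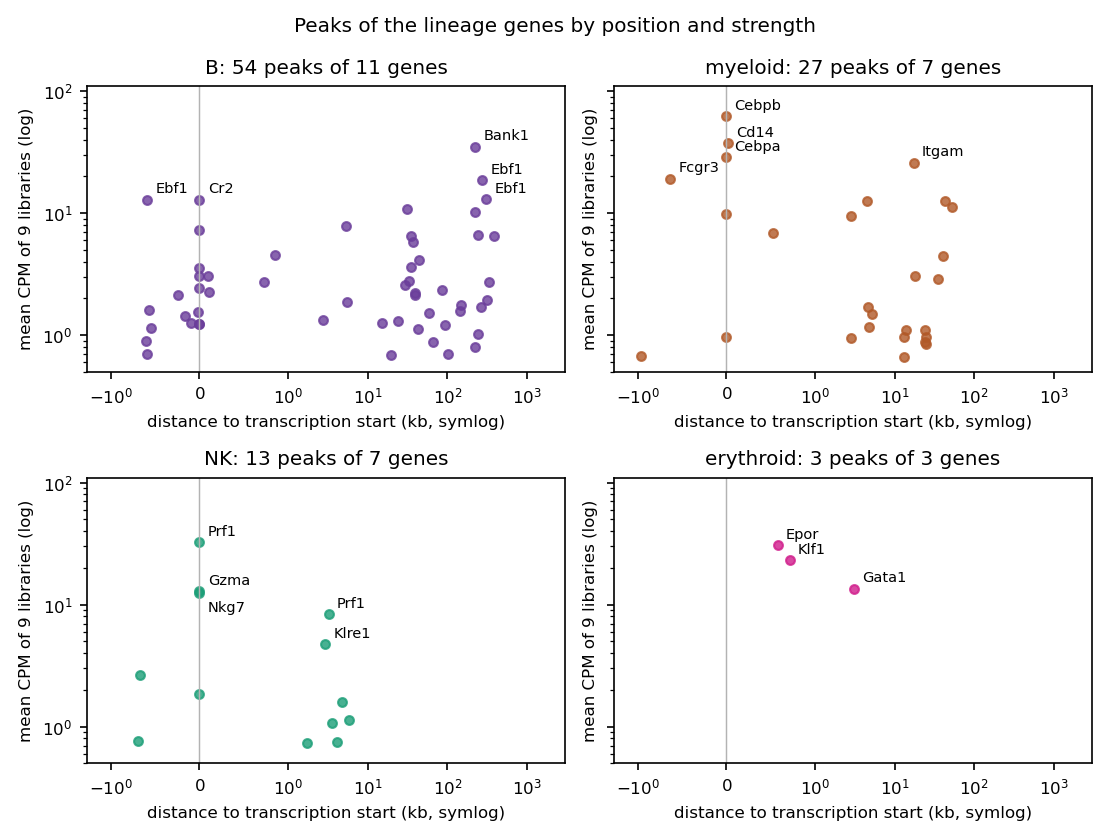
Mean CPM over the 9 libraries (log axis) of each of the 97 peaks against its distance to the transcription start in kb (symmetric log axis, negative upstream), with 1 panel per lineage. The strongest B cell peak, in Bank1 at 35.1 CPM, lies 224424 bp inside the gene, while the strongest myeloid and NK peaks, of Cebpb at 62.2 CPM and Prf1 at 32.7 CPM, lie at the start.

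The 3 erythroid genes had a peak each, none of them annotated as a promoter, and all were detected in every library. Epor, the erythropoietin receptor, had a peak in coding exon 4, 580 bp from the start (chr9:21765849-21767441). It had 33.0, 33.6 and 28.7 CPM in Stat6_KO libraries, 21.9, 38.4 and 36.1 CPM in Il21e_KO libraries, and 29.4, 22.6 and 31.6 CPM in WT libraries. The Stat6_KO and WT values overlapped, and the 2 lowest values were in the first Il21e_KO and the second WT library. The other 2 Il21e_KO libraries were above all Stat6_KO and WT libraries. Klf1, a red cell transcription factor, had a peak in coding exon 2 (chr8:87426544-87427657) with 26.1, 21.2 and 22.0 CPM in Stat6_KO libraries, 22.9, 21.4 and 25.5 CPM in Il21e_KO libraries, and 23.3, 21.8 and 23.2 CPM in WT libraries. Its 9 values ran between 21.2 and 26.1 CPM with no separation of the groups. Gata1, the master factor of red cell development, had a peak in a 5' UTR exon (chrX:7541124-7541934) with a mean of 13.5 ± 4.03 CPM (SD, n = 9). It had 14.8, 12.4 and 12.8 CPM in Stat6_KO libraries, 7.62, 11.3 and 16.6 CPM in Il21e_KO libraries, and 11.01, 13.2 and 21.9 CPM in WT libraries. The levels of the 3 peaks were 19.2 CPM per kb at Epor, 20.7 at Klf1 and 16.7 at Gata1.

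None of the 97 peaks contained the listed start of another gene. Among the stronger peaks, the closest such starts were 3765 bp from the Fcgr3 promoter (Mir6546), 4866 bp from the Klf1 peak (Dnase2a) and 5652 bp from the Epor peak (Swsap1).

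Between libraries, the B cell sum was lowest in the same 3 libraries that had the smallest share of reads in weak peaks. The B cell peaks summed to 277, 248 and 244 CPM in Stat6_KO libraries, 138, 262 and 246 CPM in Il21e_KO libraries, and 195, 209 and 270 CPM in WT libraries. The first Il21e_KO library and the first 2 WT libraries were the lowest. Weak peaks, those with 3 reads or fewer per library on average, took 6.07%, 5.61% and 5.36% of reads in Stat6_KO libraries, 2.88%, 5.49% and 5.57% in Il21e_KO libraries, and 3.68%, 4.36% and 5.56% in WT libraries, with the same 3 libraries lowest. Of the 97 lineage peaks, 5, 9 and 6 were without a read in Stat6_KO libraries, 32, 8 and 5 in Il21e_KO libraries, and 15, 11 and 8 in WT libraries. The part of this share in the B cell sums was not tested. The B cell sum of Il21e_KO minus WT was -9.32 CPM on average, and 29.2 CPM without the first Il21e_KO library. In bulk samples, fewer cells of a lineage and less open chromatin per cell cannot be told apart.

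The myeloid peaks summed to 259, 263 and 246 CPM in Stat6_KO libraries, 237, 264 and 254 CPM in Il21e_KO libraries, and 270, 270 and 275 CPM in WT libraries. All 6 knockout sums were below all 3 WT sums, by 15.7 CPM on average for Stat6_KO and 20.0 CPM for Il21e_KO (12.7 CPM without the first Il21e_KO library), and no test was made on a sum of chosen genes. A further list of myeloid genes did not share this pattern, with sums of 190, 174 and 180 CPM in Stat6_KO libraries, 103, 175 and 177 CPM in Il21e_KO libraries, and 162, 172 and 188 CPM in WT libraries, so that the Stat6_KO and WT sums overlapped. The NK peaks summed to 79.0, 81.3 and 77.7 CPM in Stat6_KO libraries, 79.1, 83.8 and 87.1 CPM in Il21e_KO libraries, and 78.3, 86.4 and 83.2 CPM in WT libraries. The erythroid peaks summed to 73.9, 67.1 and 63.6 CPM in Stat6_KO libraries, 52.4, 71.2 and 78.2 CPM in Il21e_KO libraries, and 63.6, 57.6 and 76.7 CPM in WT libraries. The groups overlapped for the B, NK and erythroid sums. Peaks of the T cell reference genes summed to between 3639 and 3855 CPM in Stat6_KO, 3747 and 4452 CPM in Il21e_KO, and 3805 and 4099 CPM in WT libraries, with the highest sum in the first Il21e_KO library.

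**Figure D3:**
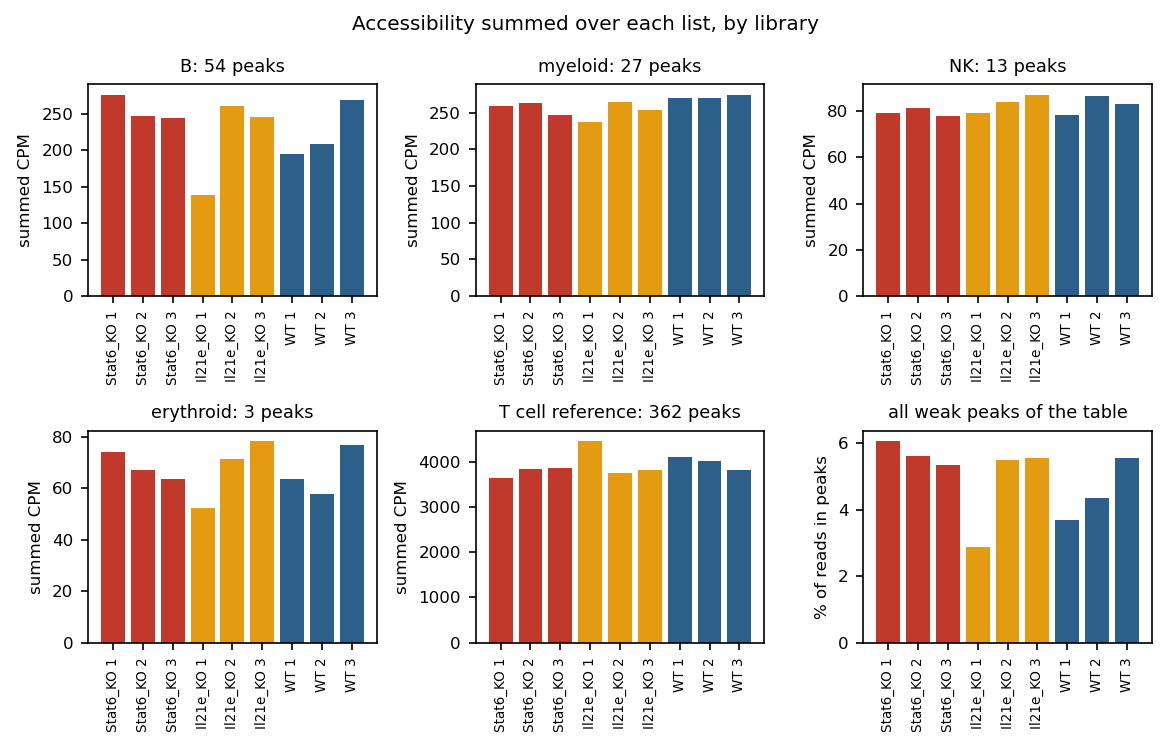
CPM summed over the listed peaks of each list in the 3 Stat6_KO, 3 Il21e_KO and 3 WT libraries, and the percentage of reads in weak peaks, with every axis starting at 0. The B cell sum is lowest in the first Il21e_KO library at 138 CPM, which also has the smallest share of reads in weak peaks, 2.88%.

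For the comparison of genotypes, 32 of the 97 peaks, from 20 genes, had enough reads to be tested: 14 peaks of B cell genes, 11 of myeloid genes, 4 of NK genes and 3 of erythroid genes. The test was limma-trend on log2(CPM + 1) over all 48287 tested peaks with Benjamini-Hochberg adjustment. It called 0 lineage peaks at a false discovery rate of 0.05 in Stat6_KO against WT, where 0.0104% of all tested peaks were called, 0 in Il21e_KO against WT (0% of all) and 0 in Stat6_KO against Il21e_KO (0.0104% of all). At an unadjusted p under 0.05 there were 2 of 32 in Stat6_KO against WT (3.29% of all tested peaks), 0 in Il21e_KO against WT (3.52%) and 0 in Stat6_KO against Il21e_KO (5.68%). The edgeR quasi-likelihood test and DESeq2 on the recovered reads also called 0 lineage peaks in each comparison. The standard errors of the 32 peaks were between 0.17 and 0.60 on the log2 scale, so small changes were not detectable at this depth.

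The lowest p in Stat6_KO against WT lay at the promoter of Nkg7, a cytotoxic granule protein (chr7:50691816-50692573). It had 10.2, 11.8 and 5.50 CPM in Stat6_KO libraries, 7.62, 17.0 and 13.9 CPM in Il21e_KO libraries, and 13.5, 17.1 and 15.5 CPM in WT libraries. All 3 Stat6_KO values were below the WT values, and the Il21e_KO values spread over both. The log2 fold change, Stat6_KO over WT, was -0.74 ± 0.29 (SE), with an adjusted p of 1.00 by limma-trend. Without the first Il21e_KO library in the shared fit the adjusted p was 0.187. Nkg7 was the only tested lineage peak with non-overlapping groups in that comparison, 1 of 32 lower against 6.89% of all tested peaks, and 0 of 32 higher against 6.31%.

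The other lineage peak with an unadjusted p under 0.05 lay at the 3' end of Ebf1 (chr11:44821443-44821969). It had 9.66, 7.07 and 8.56 CPM in Stat6_KO libraries, 5.72, 6.93 and 6.66 CPM in Il21e_KO libraries, and 5.51, 1.56 and 7.09 CPM in WT libraries. The Stat6_KO and WT values met, with 1 Stat6_KO library at 7.07 CPM and 1 WT library at 7.09 CPM. The log2 fold change was 0.87 ± 0.39 (SE; adjusted p of 1.00 by limma-trend). The other peaks with the lowest p on the higher side were Itgam exon 24 (0.33), Ebf1 intron 10 (0.29), the Ms4a1 promoter (0.39) and Epor exon 4 (0.19). On the lower side they were Itgam exon 7 (-0.27), the Fcgr3 promoter (-0.24), the Cd14 promoter (-0.20) and Bank1 intron 9 (-0.31), each as a log2 fold change that did not pass.

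In Il21e_KO against WT, 0 of 32 lineage peaks had non-overlapping groups in either direction, against 2.84% of all tested peaks higher and 4.44% lower. The lowest p was at the Cebpa promoter, with a log2 fold change of -0.45 ± 0.26 (SE; adjusted p of 1.00 by limma-trend). Without the first Il21e_KO library, whose value of 13.3 CPM was the lowest, it was -0.065. Next on the lower side were Itgam exon 7 (-0.29), Pax5 intron 5 (-0.54), the Ebf1 promoter (-0.32) and Itgam intron 2 (-0.39). On the higher side they were the Ebf1 3' end (0.53), the Prf1 promoter (0.22), Epor exon 4 (0.17), Itgam exon 24 (0.16) and Blnk intron 4 (0.10), all as log2 fold changes that did not pass. Most of these values also moved without the first Il21e_KO library, to -0.12 at Itgam intron 2, -0.29 at Pax5 intron 5, -0.17 at the Ebf1 promoter, 0.07 at the Prf1 promoter, 0.42 at Epor exon 4 and 0.21 at Blnk intron 4.

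In Stat6_KO against Il21e_KO, groups did not overlap at 3 lineage peaks that were higher in Stat6_KO, against 6.45% of all tested peaks, and at 1 that was lower, against 4.59%. The higher ones were the Ebf1 promoter, the Ebf1 3' end and Itgam exon 24, and the lower one was the Cd14 promoter. The log2 fold changes were 0.32 ± 0.22 at the Ebf1 promoter and -0.23 ± 0.17 at the Cd14 promoter (SE; adjusted p of 0.780 and 0.781 by limma-trend). The lowest p was at Ebf1 intron 10, with 15.3, 14.7 and 15.9 CPM in Stat6_KO libraries and 5.72, 17.6 and 9.43 CPM in Il21e_KO libraries. WT libraries had 12.8, 9.34 and 15.5 CPM there, and the Stat6_KO values lay inside the Il21e_KO range. The log2 fold change was 0.58 ± 0.30 (SE; adjusted p of 0.780 by limma-trend), and 0.23 without the first Il21e_KO library. Other low p values were at Itgam intron 2 (0.46), Pax5 intron 5 (0.54) and Cebpa (0.29, and -0.09 without that library) on the higher side, and at Nkg7 (-0.44), Prf1 (-0.27), Cebpb (-0.24) and the Blk 3' end (-0.29) on the lower side. Without the first Il21e_KO library the values were 0.17 at the Ebf1 promoter, 0.20 at Itgam intron 2, 0.28 at Pax5 intron 5, -0.74 at Nkg7, -0.12 at Prf1, -0.04 at Cebpb and -0.71 at the Blk 3' end.

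**Figure D4:**
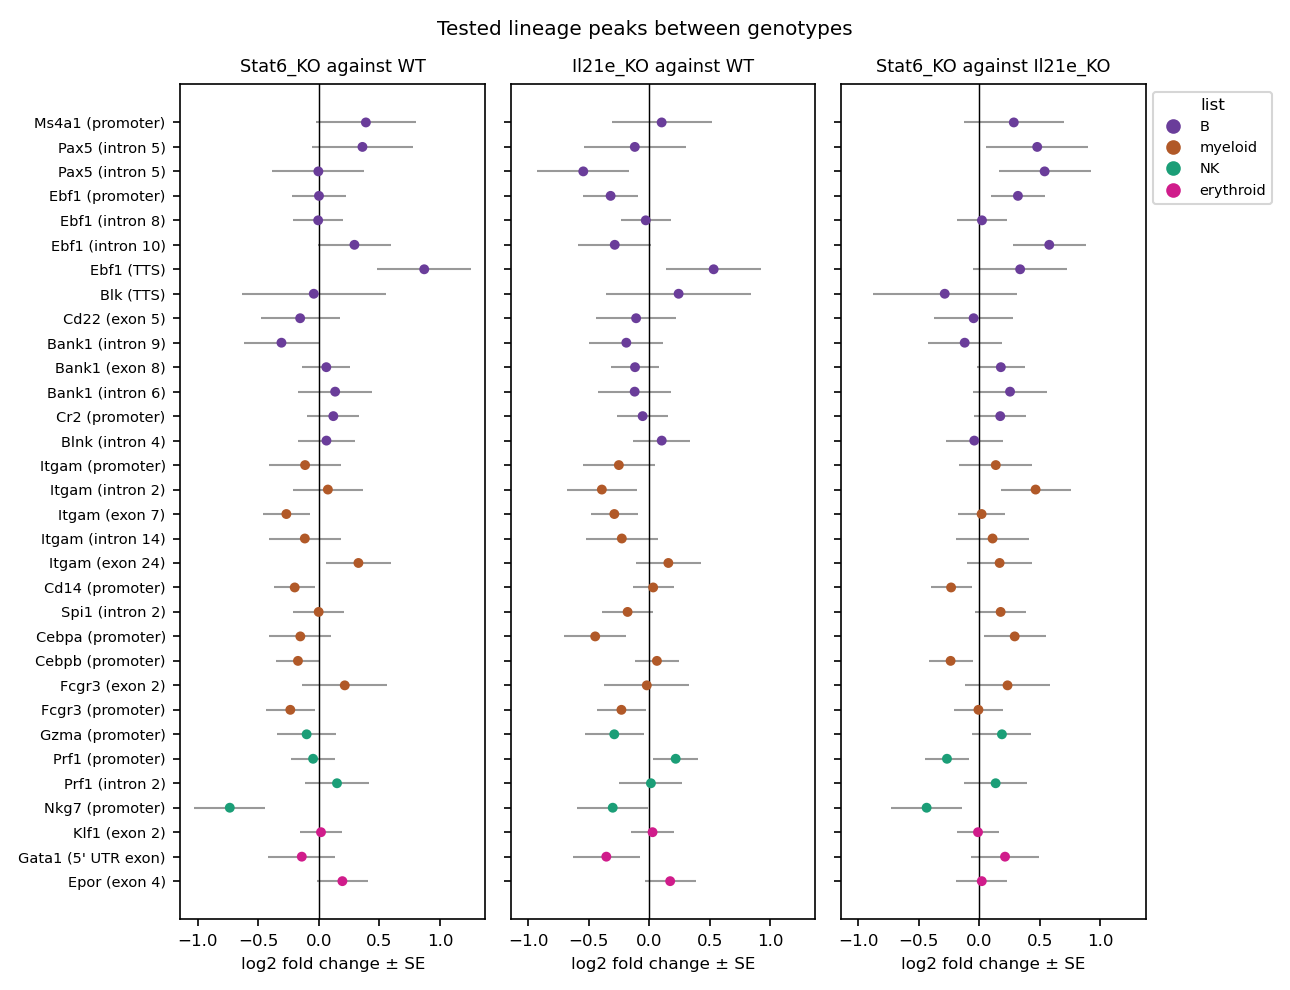
Log2 fold change on the log2(CPM + 1) scale, with its standard error, of the 32 tested lineage peaks in Stat6_KO against WT, Il21e_KO against WT and Stat6_KO against Il21e_KO, coloured by lineage. None passed a false discovery rate of 0.05; the points farthest from 0 are the Ebf1 3' end (0.87) and the Nkg7 promoter (-0.74) in Stat6_KO against WT.

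By lineage, the median log2 fold change in Stat6_KO against WT was 0.06 over the 14 B cell peaks, -0.12 over the 11 myeloid peaks, -0.08 over the 4 NK peaks and 0.02 over the 3 erythroid peaks. Over all tested peaks it was -0.0046, and over the 194 tested peaks of T cell reference genes it was -0.06. Over 9 tested peaks of further myeloid genes the median was 0.03 in Stat6_KO against WT, with 7 of the 9 values positive. In Il21e_KO against WT the medians were -0.11, -0.23, -0.14 and 0.03 in the same order of lineages, and -0.03 over all tested peaks. In Stat6_KO against Il21e_KO they were 0.22, 0.14, -0.07 and 0.02, and 0.04 over all tested peaks. The comparisons with Il21e_KO rest on its first library: without it, the B cell median, then over 15 tested peaks, was 0.14 in Il21e_KO against WT and 0.0036 in Stat6_KO against Il21e_KO. The myeloid median was then -0.06 in Il21e_KO against WT and -0.04 in Stat6_KO against Il21e_KO. The WT libraries are shared by both knockout comparisons.

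The median lineage peak varied between the 9 libraries about as much as counting alone would give, and less than that without the first Il21e_KO library. The ratio of the observed variance to counting variance had a median of 1.02 over the 32 tested lineage peaks, with a range of 0.224 to 3.35, and 0.965 over all tested peaks. Without the first Il21e_KO library these medians were 0.723 and 0.768, and why they lay below counting variance was not tested. The ratio was highest at Cebpb, at 3.35, and was 2.17 there without the first Il21e_KO library. At Cebpa it was 1.88, and 0.714 without that library.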

How the data were processed

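The deposited table gives CPM, reads per peak scaled by the authors to a column sum of 1000000, for 115727 peaks on mm9; Bowtie 1.3.0, MACS2 2.0 and HOMER are named in the submitters' processing notes, without their roles. Headers of the gene columns are shifted against their contents, and content decided which column was which. Dividing by 1 step per library gave whole reads for 100% of values, within 0.01 of a read. The step was taken as 1 read.

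Peaks were kept by filterByExpr of edgeR 4.0.16 on these reads (minimum count 10, minimum total 15), leaving 48287 and setting aside 67440. All 9 libraries were fitted with genotype only by limma-trend, on log2(CPM + 1), in R 4.3.3 with limma 3.58.1, and Benjamini-Hochberg adjustment covered all tested peaks, with a threshold of 0.05. Fold changes on this scale understate those of weak peaks. Alternatives were other pseudocounts, no filter, TMM and loess scaling, edgeR, DESeq2 1.42.0, a replicate block, separate fits of the groups compared and leaving out libraries. Tested on simulated Stat6_KO against WT data over 48287 peaks, the fit recovered 41% of 2-fold and 97% of 4-fold changes. The changed peaks were drawn without the weakest tested peaks, and no simulated library stood apart as the first Il21e_KO library did. These shares therefore do not give the recovery for weak peaks or with such a library. Levels were mean CPM per kb of peak. Gene promoters came from RefSeq (GRCm38.p6). No coordinates were converted between builds.

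Named by rule were each gene's strongest promoter peak, or its strongest peak where it had none, the 5 tested peaks with the lowest p in each direction per comparison, genes without a peak and 6 T cell genes. Peaks named for being stronger inside the gene were picked with their values in view. The genes and lists were chosen with earlier results of these data known. Chi-square per degree of freedom between library pairs was 0.723 to 2.55 within groups and 0.752 to 2.93 between genotypes. Low values were not particular to pairs within a group, so no pair was treated as 1 library. Analyses used Python 3.11.15 with pandas 2.3.3, numpy 2.4.6 and scipy 1.17.1.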

Additional observations from a re-analysis of the deposited data

How the results depend on the processing

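No lineage peak was called in any of 19 alternatives, of which 18 were planned and the one leaving out the first Il21e_KO and first WT libraries together was chosen after seeing the data. Over these, 1820 values of lineage peaks gave 173 changes of sign, all of values that were not called. The lowest adjusted p of a lineage peak was between 0.187 and 1 for Stat6_KO against WT, 0.622 and 1 for Il21e_KO against WT, and 0.378 and 1 for Stat6_KO against Il21e_KO. An Ebf1 intron 10 peak set aside for few reads (chr11:44741911-44742340) had 5.11, 5.30 and 4.28 CPM in Stat6_KO libraries. It had 0, 0.630 and 0.555 CPM in Il21e_KO libraries, and 0, 0.779 and 0.645 CPM in WT libraries. With no filter, its log2 fold change was 2.04 against WT and 2.11 against Il21e_KO, with adjusted p of 0.420 and 0.381 by limma-trend. This peak was picked with its values in view. Over all tested peaks, calls in Stat6_KO against WT numbered 5, and 28 in a fit of both groups alone, 63 without the first Il21e_KO library, 9 without the first WT library and 73 without both. In Il21e_KO against WT they numbered 0, and 1 with no filter, 4 without the first Il21e_KO library and 3 without both. In Stat6_KO against Il21e_KO they numbered 5, and 8 with a pseudocount of 5, 16 with no filter, 13 with loess scaling, 12 with edgeR, 18 without the first Il21e_KO library, 9 without the first WT library and 23 without both. The replicate block gave 4, 0 and 5 calls over all peaks in these comparisons. Same-numbered libraries correlated between -0.186 and 0.249 in their deviations, and differently numbered ones between -0.302 and 0.242. These ranges overlap, and with 3 libraries a group they cannot decide whether the numbers mark a pairing. Over tested peaks only, a choice made after seeing the data, the myeloid sum in Stat6_KO differed by -23.9 CPM from WT, the NK sum by -7.55 CPM from WT and by -8.05 CPM from Il21e_KO, against -15.7, -3.34 and -4.03 CPM over all listed peaks. The B sum in Stat6_KO then differed by 9.84 CPM from WT and 20.1 CPM from Il21e_KO, against 31.8 and 41.1 CPM over all listed peaks, and by 2.58 CPM from Il21e_KO over all listed peaks without the first Il21e_KO library. The count of open promoters was 4 under 3 other settings as well, with Cebpa in place of Fcgr3 when levels were not set per kb. Depth limits the 44 peaks with 3 reads or fewer per library.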

Other observations

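Other genes of the same lineages also included open promoters. Of further B cell genes, 3 of 11 with a promoter peak were above the median promoter level, as were 1 of 6 further myeloid genes, 4 of 10 further NK genes and 1 of 5 further erythroid and megakaryocyte genes. Each of these shares was below the 55.5% of all genes with a promoter peak. The most open of these were promoters of Il2rb, the shared beta chain of the interleukin-2 and interleukin-15 receptors, at 30.7 CPM per kb, and Itga2, the integrin alpha 2 of NK cells and platelets, at 30.0 CPM per kb. They were followed by the chemokine receptor gene Ccr2 at 29.8, the erythroid and megakaryocyte factor gene Nfe2 at 28.7 and Cd74, the invariant chain of MHC class II, at 28.1 CPM per kb.

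Genes of the CD8 T cell were open in part. The promoter of Cd8b1, a chain of the CD8 co-receptor, had 35.1 ± 3.64 CPM (SD, n = 9) at 29.1 CPM per kb, above 92.1% of promoter peaks. Runx3, the factor that silences Cd4 in CD8 cells, had a promoter peak at 23.1 CPM per kb, and Eomes, a factor of memory and NK cells, one at 13.9 CPM per kb. Cd8a had a peak in coding exon 5 at 14.9 ± 2.74 CPM (SD, n = 9) and none at its start.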
